A study of Mus musculus with 26 samples.

Results

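The nuclei described here were MGE-type interneurons of the E15.5 mouse cortex, the GABAergic neurons that are born in the medial ganglionic eminence (MGE) of the ventral forebrain. In 8 single-nucleus RNA-seq libraries, 1965 of 43456 nuclei were members, a nucleus being a barcode with at least 500 UMIs (unique molecular identifiers, each standing for 1 captured RNA molecule) and 200 genes. A member held at least 1 UMI summed over 5 GABAergic genes (Gad1, Gad2, Dlx1, Dlx2, Dlx5) and at least 2 over 4 MGE genes (Lhx6, Nxph1, Sst, Maf). It held at most 1 UMI of Adarb2 and Prox1, which mark interneurons of the caudal ganglionic eminence (CGE), and at most 1 of the striatal and ventral genes Ebf1, Isl1 and Six3. These 14 genes chose the members, so their levels are given as a description only.

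Interneurons of the MGE settle on their fate under the transcription factors Nkx2-1 and then Lhx6, with Sox6 and Satb1 acting downstream, and become the Sst and Pvalb classes of the adult cortex. They reach the cortex by tangential migration, steered by the chemokine receptors Cxcr4 and Ackr3 and by Erbb4, a receptor for neuregulins. CGE-derived interneurons carry Prox1, Nr2f2 and Sp8 and become the Vip and other classes. At E15.5 many interneurons are still migrating, and parvalbumin appears only after birth.

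The study asked whether microglia are needed for the response of the fetal cortex to maternal immune activation (MIA), and its 26 samples include these 8 libraries of prospective somatosensory cortex. At E12.5 the dams received saline or poly(I:C), which imitates the double-stranded RNA of a virus, by injection, and male C57Bl/6N embryos were collected at E15.5. There were 2 libraries in each of 4 groups, wild-type (WT) saline, WT MIA, Csf1r-null saline and Csf1r-null MIA. Csf1r-null embryos lack the receptor for colony stimulating factor 1 in every cell from conception and are nearly free of microglia, so that the loss is not confined to the period of the injection. WT embryos were littermates, and nuclei were sorted on a DNA stain and carried no treatment other than the injection of the dam. By the paper each group drew on 2 or 3 embryos, with 4 pregnant dams in all. The labels do not tie libraries to dams, so p-values measure the spread between these libraries, which may in part be technical. Libraries of the same treatment may share an injected dam, so n counts libraries and not independent dams.

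The libraries held 4552 to 6198 nuclei, and the members of a library summed to 350214 to 955116 UMIs. Some libraries stood apart. Csf1r itself had 23 and 11 UMIs in the WT saline libraries, 23 and 1 in WT MIA, 4 and 10 in Csf1r-null saline and 2 and 1 in Csf1r-null MIA, and summed microglial markers had 210 to 496 UMIs in the 4 libraries with 10 or more Csf1r UMIs and 54 to 105 in the other 4. The second WT MIA and the second Csf1r-null saline library thus went against their labels, and below they are the libraries labelled WT MIA 2 and Csf1r-null saline 2. In the members these markers summed to only 0 to 9 UMIs a library, with C1qa, Cx3cr1, P2ry12, Trem2 and Aif1 at 0 throughout. WT saline 1 held 354 of the 364 nuclei with a striatal-like profile and 96 of the 186 CGE-type nuclei. No member barcode was shared between libraries. Over all pairs of libraries 238 nuclei barcodes were shared, where 121 were expected by chance, and the cause was not tested.

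Genes that the rule did not use were checked against the label. Levels are given as CPM, for which a library's summed counts of a class were brought to the same total in every library. Erbb4 was detected in 60.9% of members, the long non-coding RNA Dlx6os1 in 69.3% and Sox6 in 45.9%. Erbb4 and Dlx6os1 mark interneurons more widely, and Erbb4 stood at 464 CPM in CGE-type nuclei too, where Sox6, at 343 CPM in members, stood at 62.1. Among the rule's genes Maf was detected in 90.5%, Gad2 in 68.1%, Nxph1 in 66.4%, Lhx6 in 59.4% and Sst in 30.4%. Erbb4 stood at 551 CPM in the members, the mean of 8 libraries, and at 6.53 in all other nuclei. Other genes with high member levels relative to the remaining nuclei were Cacng3 (118-fold), an AMPA receptor auxiliary subunit, Nxph2 (103-fold), a neurexin ligand, Npas1 (51.3-fold), a transcription factor of interneurons, Ackr3 (31.6-fold) and Cxcr4 (28.5-fold). Of 28 MGE genes outside the rule, 25 were detected, and they summed to 6058 to 7611 CPM in the members against 1543 to 2060 in the others. Lhx8, Pvalb and Crhbp had no UMI in any member, nor did Vip and Crh of the CGE list.

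Nuclei near the limits of the rule differed in these independent markers. The 211 members with exactly 2 MGE UMIs had 407 CPM of Erbb4 and 407 of Meis2, a gene of striatal and projection neurons. The 1754 members with 3 or more had 569 and 205. The 209 nuclei that failed with a single MGE UMI had 288 CPM of Erbb4 and 1441 of Meis2. Markers of projection neurons were lower in members (1305 to 1828 CPM summed) than in the remaining nuclei (4233 to 5756), but 10.8 to 19.8% of the members of a library had at least 2 UMIs of 6 such genes. Scrublet, which scores barcodes that may hold 2 nuclei, placed 7.28 to 11.7% of members and 3.65 to 4.95% of all nuclei among its top scores. Their part in the results was not tested beyond repeating each comparison without these members.

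**Figure D1:**
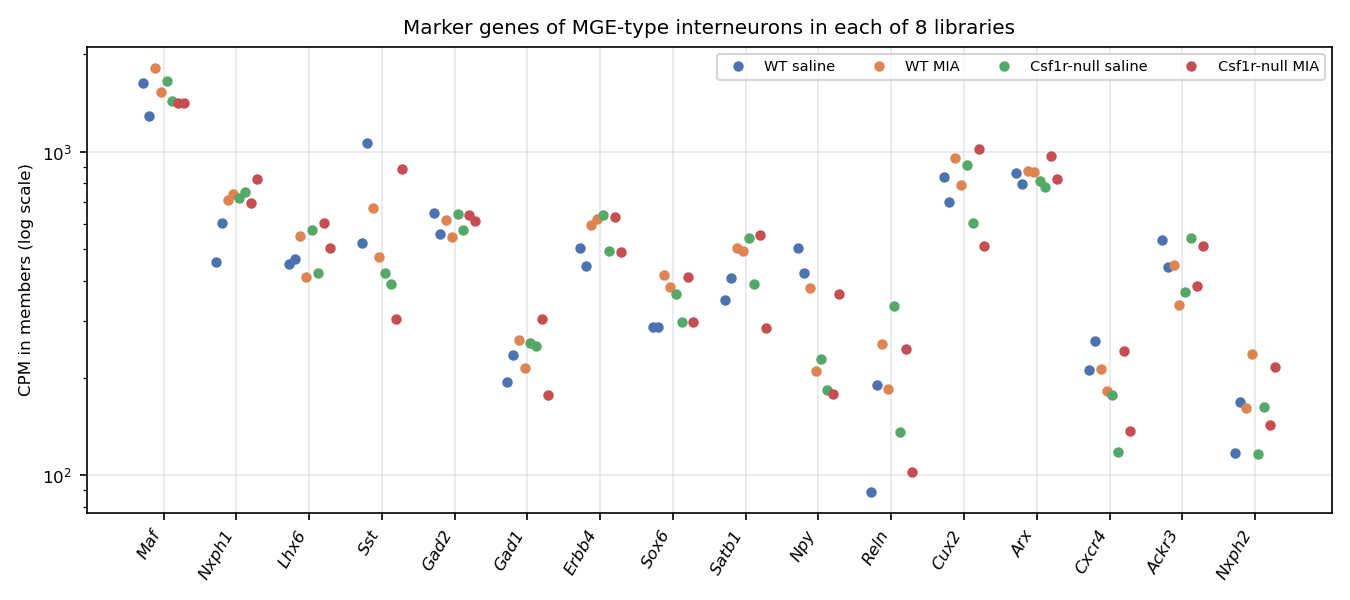
Marker genes of MGE-type interneurons, with 1 point per library for the sum over its members (y axis, CPM on a log scale) and colours for the 4 groups. Maf is the highest of the rule's genes in every library, at 1288 to 1812 CPM, and Sst and Reln spread most widely among the libraries.

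The neuropeptide somatostatin (Sst, chr16:23889573-23890958, minus strand of GRCm38) was the most variable of the rule's MGE genes. Its promoter is shown beside that of Npy, the peptide gene that rose most with Sst among members, because a well-known element is present in only 1 of them. In the RefSeq promoter windows, which run from 250 bases before to 50 after the gene start in build GRCm38.p6, capitals mark the cyclic AMP response element TGACGTCA, the site from which the factor CREB took its name.
Sst, chr16:23890795-23891094, minus strand: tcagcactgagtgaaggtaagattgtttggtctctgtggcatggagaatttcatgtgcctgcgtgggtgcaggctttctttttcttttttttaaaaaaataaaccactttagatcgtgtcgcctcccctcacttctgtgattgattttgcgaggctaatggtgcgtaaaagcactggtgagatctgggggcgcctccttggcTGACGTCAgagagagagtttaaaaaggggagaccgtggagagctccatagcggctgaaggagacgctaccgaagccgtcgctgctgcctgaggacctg
Npy, chr6:49822460-49822759, plus strand: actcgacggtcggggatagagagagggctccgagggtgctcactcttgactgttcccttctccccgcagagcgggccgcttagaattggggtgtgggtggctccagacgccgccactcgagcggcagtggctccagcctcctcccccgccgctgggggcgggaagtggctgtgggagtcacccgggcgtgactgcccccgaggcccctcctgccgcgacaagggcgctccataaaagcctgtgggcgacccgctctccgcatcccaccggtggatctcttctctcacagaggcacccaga
The element lies at bases 203 to 210 of the Sst window, ending 41 bases before the RefSeq start. That start lies inside the gene as the GENCODE annotation bounds it above, so the element is within the annotated gene there. This palindrome reads the same on both strands. It was found in 588 of 32851 promoter windows (1.79%). The letters TGACGTCA are not in the Npy window, which says nothing of other sites.

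Sst stood at 523 CPM in WT saline 1, 1067 in WT saline 2, 671 in WT MIA 1, 474 in the library labelled WT MIA 2, 423 and 390 in Csf1r-null saline and 303 and 885 in Csf1r-null MIA. Both treatments and both genotypes overlapped. With nuclei thinned to 1000 UMIs, 15.9 to 35.2% of members had an Sst UMI, against 0.18 to 0.711% of projection neurons, which should lack it. The 2 highest shares belonged to WT saline 2 (34.9%) and Csf1r-null MIA 2 (35.2%). In MIA libraries 25.4% ± 7.07 (SD, n = 4) of members had an Sst UMI and in saline libraries 22.3% ± 8.63. The difference of 3.16 percentage points, which was not tested because Sst is a gene of the rule, was smaller than either SD and turned to -1.58 without WT saline 1 and -0.94 without Csf1r-null MIA 2.

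Members that carried Sst differed from those that did not. Npy, a peptide that many adult Sst neurons also release, was higher in the 598 Sst-detected members than in the 1367 Sst-free ones in 8 of 8 libraries, at 691 ± 262 CPM against 116 ± 88.8 (SD, n = 8), a log2 difference of 2.57 ± 0.12 (SE). With the library as a block, edgeR's quasi-likelihood test called 191 of 4450 genes outside the rule at an adjusted p under 0.05 (4.29%), 126 higher (2.83%) and 65 lower (1.46%) in Sst-detected members. DESeq2 called 99, 65 higher and 34 lower. Without the low-count filter edgeR called 267, and the split turned to 128 higher and 139 lower. Sst-detected members were the deeper set in 7 of 8 libraries by median UMIs a nucleus, most so in WT saline 1 (2838 against 2215.5), and an Sst UMI is found more readily in a deeper nucleus.

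The sets also entered by different routes, since Sst-free members had to reach 2 MGE UMIs through Lhx6, Nxph1 and Maf alone. When both sets were held to that condition, a choice made after seeing the data, 535 Sst-detected members remained beside the 1367, and 168 genes were called, 110 higher and 58 lower. Of the 191 genes, 188 were tested again, all in the same direction, and 159 were still called. Both tests used the same Sst-free members and mostly the same Sst-detected ones, so agreement in direction follows largely from that overlap. Depth was not equalised between the sets in either test.

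Among the genes higher in Sst-detected members, Reln, the secreted glycoprotein reelin, was 367 ± 119 against 107 ± 61.5 CPM (log2 difference 1.78 ± 0.12), and Sema3a, a repellent guidance cue, was 258 ± 54.2 against 78.8 ± 39.8 (1.78 ± 0.14). Neto1, an auxiliary subunit of kainate receptors, differed by 1.71, and Grik1, a subunit of those receptors, by 1.49. Elfn1, a synaptic adhesion protein known from Sst interneurons, differed by 1.53, Dock9 by 1.82, Plcb1, a phospholipase, by 1.65, the long non-coding RNA Snhg11 by 1.37 and the cannabinoid receptor Cnr1 by 1.31. Each of these 10 genes, Npy included, was higher in all 8 libraries.

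Genes of the MGE list went both ways with Sst. Of 16 tested MGE genes outside the rule, 7 were higher and 3 lower in Sst-detected members, with a median log2 difference of 0.18 beside 0.00 for all genes tested. Satb1 (0.62) and Sox6 (0.48), both linked to the maturation of these neurons, were among the higher ones, as was Npas1 (1.11). Mef2c (-0.44), Tcf12 (-0.36) and Erbb4 (-0.28 ± 0.08) were lower, of which Erbb4 was not called with both sets held to the same condition (-0.24, edgeR adjusted p = 0.069). Among AMPA, kainate and NMDA receptor genes, 4 of 8 were higher (Gria2, Grik1, Grik2, Grin2b) and none lower. Of 23 migration genes 3 were higher and 3 lower, among the latter Epha5 (-0.69 ± 0.05) and Dcx (-0.21), a microtubule protein of migrating neurons that was not called under that condition (-0.17, edgeR adjusted p = 0.194).

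Genes lower in Sst-detected members were of several kinds. Sp9, a factor of ventral forebrain progenitors and young interneurons, was 163 ± 56.6 CPM in them and 340 ± 81.1 in Sst-free members (log2 difference -1.10 ± 0.11). Sox1 (-1.25) and Id3 (-1.14), known from neural progenitors, were also lower with Sst, together with Car2 (-1.36), a carbonic anhydrase, Gabrg3 (-1.26), a GABA-A receptor subunit, Gucy1a1 (-1.01), a subunit of the nitric oxide receptor, Cdca7 (-0.97), Cd1d1 (-1.05), Tmem47 (-1.03) and Gm14964 (-1.04). Of 3 tested S phase and mitosis genes none was called, and of 4 apical progenitor markers 1 was lower. Lists of proteasome (0 of 31) and nuclear oxidative phosphorylation genes (0 of 69) had no call, and 3 of 79 ribosomal genes were lower. Among the rule's genes, Lhx6 averaged 508 CPM with Sst and 489 without, and Maf 1222 and 1674. Maf is one of the genes through which nuclei without Sst had to enter.

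**Figure D2:**
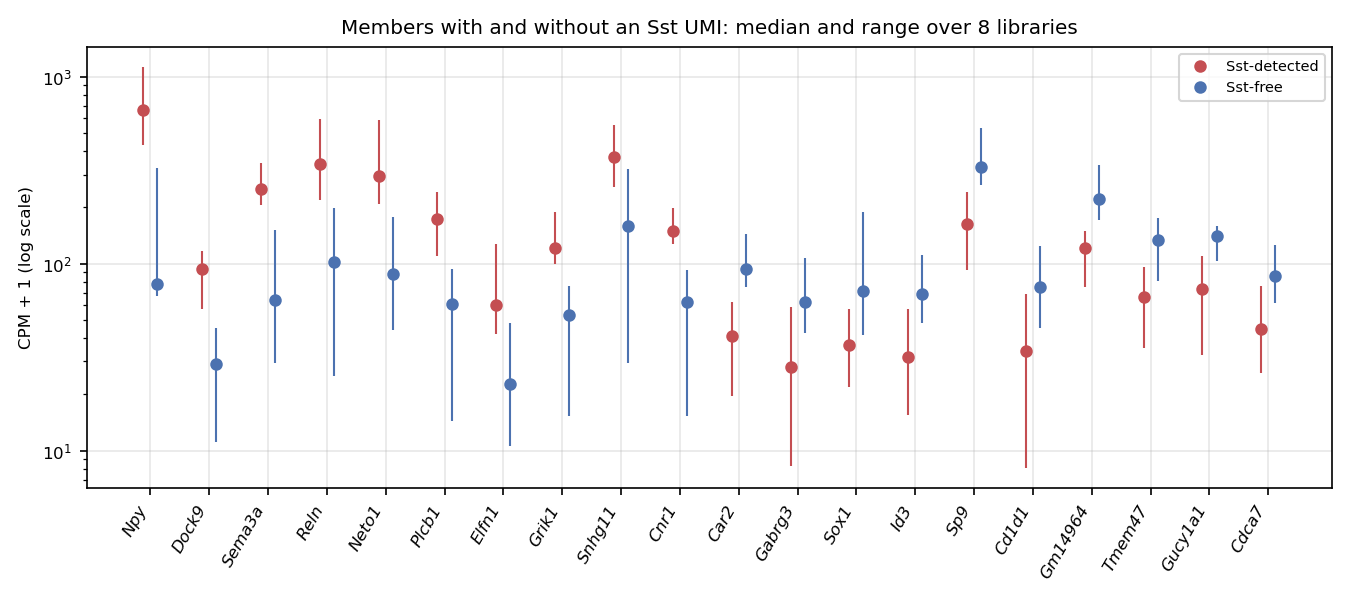
The 10 genes higher and the 10 lower in members with an Sst UMI among called genes with a mean of at least 20 CPM in members, as median (points) and range (lines) over 8 libraries, in CPM + 1 on a log scale, for Sst-detected and Sst-free members. Npy shows the widest gap, 430 to 1126 CPM with Sst and 66.2 to 326 without.

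CGE-type interneurons, defined by at least 2 UMIs of Adarb2 and Prox1 and at most 1 of the MGE genes, were the other class of interneurons set beside the members. With both classes summed in each library, edgeR called 223 of 5502 genes outside the rule (4.05%), 162 higher (2.94%) and 61 lower (1.11%) in the members. DESeq2 called 151, 96 higher and 55 lower, and edgeR without the low-count filter 389, 281 higher and 108 lower. Only 186 CGE-type nuclei were found, 8 to 96 a library, and without WT saline 1 the calls were 146, of which 100 were higher.

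The genes higher in members were of several kinds. Ackr3, the scavenger receptor for Cxcl12, stood at 445 ± 77.8 CPM in MGE-type and 3.46 ± 9.79 in CGE-type nuclei (SD, n = 8), a log2 difference of 5.06 ± 0.38, and its partner Cxcr4 at 193 ± 48.8 and 100 ± 79.1 (1.10 ± 0.30). All 7 CGE-type UMIs of Ackr3 came from WT saline 1. Thbs1, a secreted matrix protein, had 513 UMIs in members and 0 in CGE-type nuclei, which makes it at least 15.7-fold higher in CPM, taking 3 UMIs over the group as the floor. On the same floor Cacng3 was at least 9.51-fold and Tox2 at least 7.43-fold higher. Genes with 1 to 3 UMIs in CGE-type nuclei were Fam135b (ratio 72.8, 95% counting interval 13.03 to 2880), Neto1 (69.7, 12.47 to 2756), Nxph2 (66.3, 11.9 to 2622), the glutamate receptor Grm5 (34.4, 11.8 to 167) and Nrsn1 (22.6, 4.03 to 898). These intervals cover counting error only.

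Npy separated the classes as well, at 308 ± 124 CPM in MGE-type and 9.97 ± 19.6 in CGE-type nuclei (log2 difference 4.56 ± 0.41). Of 16 tested MGE genes outside the rule, 9 were higher in the members and none lower, with a median log2 difference of 1.10 beside 0.14 for all genes tested. Among them Sox6 was 343 ± 56.3 against 62.1 ± 63.8 CPM (2.47 ± 0.30), Cux2 differed by 4.02, Satb1 by 1.62 and Mef2c by 1.48. Erbb4 was 551 ± 76.0 CPM in MGE-type and 464 ± 152 in CGE-type nuclei. Its log2 difference of 0.51 ± 0.19 missed the threshold (edgeR adjusted p = 0.11), and Erbb4 was present in both classes.

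Of 8 tested AMPA, kainate and NMDA receptor genes, Gria1 (log2 difference 3.90), Grik2 (3.29), Grik1 (3.01) and Gria4 (2.44) were higher in MGE-type nuclei and none lower. Guidance genes split, 6 of 26 being higher, among them Sema6a (1.99), Sema3a (1.49), the neurotrophin receptor Ntrk2 (1.01) and Epha5 (0.64), and 3 lower, namely the semaphorin receptors Nrp2 (-3.42) and Plxna4 (-1.25) and the ephrin receptor Epha4 (-1.37). Of 17 adhesion genes 4 were higher, with Adgrl2 (1.31) beside Nxph2, and Tenm4 (-1.21) was lower. Proteasome, oxidative phosphorylation and ribosomal genes had no call, with list medians between 0.04 and 0.08.

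On the CGE side, Sp8 was 3.40 ± 4.49 CPM in members and 376 ± 91.7 in CGE-type nuclei (log2 difference -6.11 ± 0.36), and Nr2f2, which encodes COUP-TFII, 27.9 ± 14.5 and 748 ± 403 (-4.40 ± 0.24). Pbx3 (-4.81), Pax6 (-3.52) and Meis2 (-2.21), all homeodomain factors, were lower in members, as were Cnr1 (-2.19), the calcium channel subunit Cacna2d3 (-2.45), Islr2 (-2.67), the integrin Itgb8 (-1.91), Csmd3 (-1.90) and Maml3 (-1.88), a coactivator of Notch signalling. Not every gene of the CGE list went this way. Of 10 tested, 5 were lower in members and 2 higher, Sp9 (0.95) and the peptide gene Cck (2.32).

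**Figure D3:**
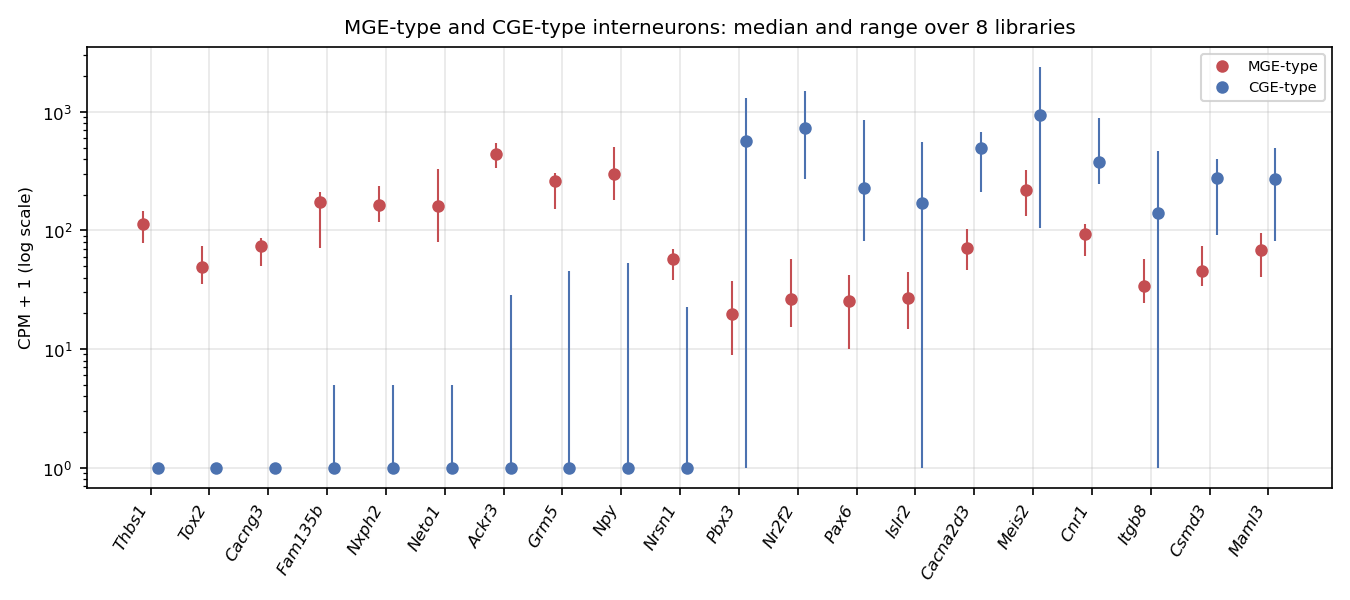
The 10 genes higher and the 10 lower in MGE-type than in CGE-type nuclei among called genes with a mean of at least 20 CPM in members, which leaves out Sp8 and Nrp2, as median (points) and range (lines) over 8 libraries, in CPM + 1 on a log scale. For the 10 genes on the left, the CGE-type median is 0 CPM, drawn at 1, and every member value lies at 34.3 CPM or more. Genes this low in CGE-type nuclei passed the low-count filter through their member values, so that lower limit is no measure of separation.

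The share of members among nuclei was 7.61 and 4.26% in WT saline, 5.89 and 3.07% in WT MIA, 3.61 and 3.89% in Csf1r-null saline and 5.14 and 3.32% in Csf1r-null MIA. WT saline 1 was highest and the library labelled WT MIA 2 lowest, and the groups overlapped. Shares averaged 4.35% ± 1.38 after MIA and 4.84% ± 1.86 after saline (SD, n = 4), a difference of -0.49 percentage points (exact permutation test, two-sided, p = 0.667), which turned to 0.35 without WT saline 1, 0.22 without the library labelled WT MIA 2 and 0.29 without both libraries that contradict their labels. In Csf1r-null embryos they averaged 3.99% ± 0.80 and in WT 5.21% ± 1.98, differing by -1.21 percentage points (exact permutation test, p = 0.278), which shrank to -0.37 without WT saline 1 and grew to -2.05 without WT saline 2. Both libraries that contradict their labels count here under those labels, the lowest WT share among them. Members made up 78.8% of MGE-type plus CGE-type interneurons in WT saline 1 and 91.7 to 97.5% in the other 7 libraries, or 94.9% ± 2.07 after MIA and 90.2% ± 7.84 after saline (exact permutation test, p = 0.389). With these 3 share tests as a family, the adjusted p values were 0.667 for treatment, 0.583 for genotype and 0.583 for the share among interneurons, and the design allows no p below 0.0556.

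**Figure D4:**
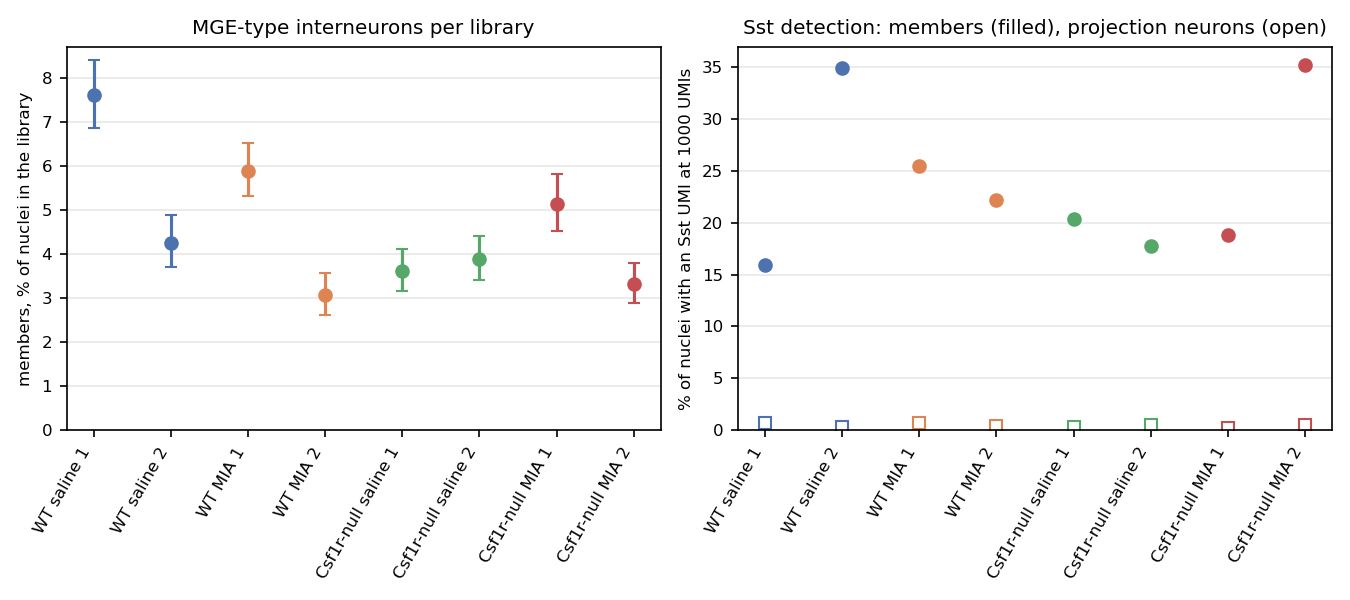
Left, members as a percentage of all nuclei in each library (points) with 95% exact binomial intervals. Right, the percentage of members (filled circles) and of projection neurons (open squares) with an Sst UMI after thinning to 1000 UMIs. Members range from 3.07 to 7.61% of nuclei, and Sst detection in members is 15.9% or more in every library.

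Whether MIA changed expression inside these neurons was tested over the sums of the members, with 8230 genes. In WT embryos Snhg11 stood at 110 and 160 CPM after saline and at 401 and 359 after MIA, a log2 difference of 1.48 ± 0.27. Tuba1a, the main alpha-tubulin of young neurons, stood at 9837 and 8091 CPM after saline and at 4767 and 4517 after MIA (-0.99 ± 0.16). Neither pair of groups overlapped (n = 2 libraries each), but the second MIA value of each gene is from the library labelled WT MIA 2, which goes against its label. The library labelled Csf1r-null saline 2, which also does, stood at 149 CPM for Snhg11 and 4209 for Tuba1a. With both under their labels, edgeR called none of the 8230 genes (0.0%, 666 with an unadjusted p under 0.05). Its adjusted p values were 0.152 for Snhg11 and 0.146 for Tuba1a. DESeq2 called 24 of the 1529 genes to which it gave an adjusted p (1.57%), 2 higher (0.131%) and 22 lower (1.44%).

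The outcome changed when the replicate number, which coincides with the version of the authors' counting software Cell Ranger, entered the fit as a block. EdgeR then called 181 genes (2.2%), 22 higher (0.267%) and 159 lower (1.93%) after MIA in WT embryos, which included all 24 DESeq2 calls. The number of calls depended on single libraries, whose removal leaves 1 library in a group. Leaving out WT saline 1 left 1 call, Dqx1, a gene at 99.8 CPM in WT saline 2 and 0 in WT saline 1, and leaving out the library labelled WT MIA 2 left 11, while the 181 genes kept their direction in both fits. Without WT MIA 1, 91 of the 181 were still called, and without WT saline 2, 94. Without Csf1r-null MIA 1, which is no part of the contrast but of the shared error, 312 were called. Without both libraries that go against their labels 8 were called, among them Snhg11 (log2 difference 1.78), Dlgap1 (0.88), Tuba1a (-0.94), AY036118 (-1.17), Gm42418 (-0.81), Ubb (-0.84) and Atp5c1 (-1.11).

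Among the 22 genes higher after MIA with the block, of which none was called without WT saline 1, Dlgap1, a scaffold of the postsynaptic density, stood at 372 and 401 CPM in WT saline and at 751 and 745 in WT MIA (log2 difference 0.91 ± 0.19, edgeR adjusted p = 0.182 without and 0.00032 with the block). Nrg3, a neuregulin that binds Erbb4, stood at 29.3 and 28.8 against 77.4 and 60.7 (1.23 ± 0.29, edgeR adjusted p = 0.258 and 0.011). In Csf1r-null saline Dlgap1 stood at 758 and 658 CPM and Nrg3 at 81.6 and 60.3, above both WT saline libraries. The calcium release channel Ryr2 stood at 16.8 and 35.5 CPM in WT saline and 64.3 and 68.9 in WT MIA (1.43 ± 0.39). Pex5l, a regulator of HCN channels, stood at 5.23 and 8.87 against 28.3 and 24.8 (1.97 ± 0.54), levels of few UMIs. Both passed only with the block too, at edgeR adjusted p values of 0.0097 and 0.038, and so did Ntrk2 (0.71).

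Among the lower genes with the smallest p-values, Psmb6, a catalytic subunit of the proteasome, stood at 240 and 293 CPM in WT saline and at 126 and 99.3 in WT MIA (log2 difference -1.25 ± 0.23). Csnk2b, a casein kinase subunit, stood at 149 and 164 against 74.1 and 57.9 (-1.25 ± 0.24). In Csf1r-null saline Psmb6 stood at 143 and 144 CPM and Csnk2b at 90.7 and 70.8, below both WT saline libraries. Hist3h2ba, a histone gene (-1.09 ± 0.21), and Gm42418, an RNA gene that overlaps ribosomal RNA sequence (-0.85 ± 0.16), also passed with the block, all 4 at edgeR adjusted p values of 0.00019 to 0.00069 with it and 0.152 without. All 8 tubulin genes tested lay below 0, with a median of -0.80, and 5 were lower with the block (Tuba1a, Tubb2a, Tubb2b, Tubb3 and Tubb5).

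Most genes of some lists lay below 0 in the same comparison, where the median of all genes was 0.01 and 1.93% of all genes were lower with the block. Of 31 proteasome genes, 28 lay below 0 (median -0.62) and 9 were lower with the block. Their summed level was 4983 to 5219 CPM in WT saline and 3660 to 3667 in WT MIA. It was 3591 to 3622 in Csf1r-null saline and 3094 to 3718 in Csf1r-null MIA. Of 73 nuclear oxidative phosphorylation genes, 72 lay below 0 (median -0.61) and 19 were lower with the block, among them Atp5o (-1.06), Cox5a (-0.90) and Ndufa1 (-1.11). Their sum was 12414 to 14475 CPM in WT saline and 8842 to 9153 in WT MIA. In Csf1r-null saline it was 9256 to 9392 and in Csf1r-null MIA 7683 to 10488. Both sums were lower after MIA in all other nuclei of the WT libraries too. There proteasome genes summed to 5176 and 5479 CPM in WT saline and 4119 and 4052 in WT MIA. Oxidative phosphorylation genes summed to 12511 and 15171 there in WT saline and 10946 and 9927 in WT MIA. Of 80 ribosomal protein genes, 79 lay below 0 (median -0.40) and 11 were lower with the block. Their sums in the other nuclei overlapped between WT saline and WT MIA. Of 6 heat shock and immediate early genes the chaperones Hspa8 (-0.86) and Hsp90aa1 (-0.72) were lower with the block (list median -0.29). Of 9 S phase and mitosis genes only the replication clamp Pcna (-1.07) was (list median -0.23), and the summed level of that list overlapped between the groups.

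Hemoglobin RNA, which neurons at this stage are not known to make in quantity, moved with these lists. Its 4 tested genes were lower with the block in WT MIA (median log2 difference -1.22), and the sum over hemoglobin genes in the members was 351 to 506 CPM in WT saline, 163 to 248 in WT MIA, 152 to 183 in Csf1r-null saline and 109 to 214 in Csf1r-null MIA. The part of RNA from outside the nuclei in the lower levels was not tested.

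Lists tied to interneuron identity and function are read against the 2.2% of all genes called with the block. None of 19 MGE genes outside the rule passed with the block (median 0.31), nor did any of 9 CGE genes (0.12), 21 adhesion genes (0.27), 10 glutamate receptor genes (0.21) or 6 GABA-A receptor genes (-0.13). Of 28 migration genes Nrg3 and Ntrk2 were higher. Erbb4 itself stood at 503 and 443 CPM in WT saline and 593 and 621 in WT MIA (0.31 ± 0.19, edgeR adjusted p = 0.719). None of 5 interferon response genes and 20 endoplasmic reticulum stress genes passed, with medians of 0.08 and -0.19. Markers of projection neurons (13 tested, median -0.10), apical progenitors (7, 0.00) and striatal neurons (5, 0.11) had no call.

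**Figure D5:**
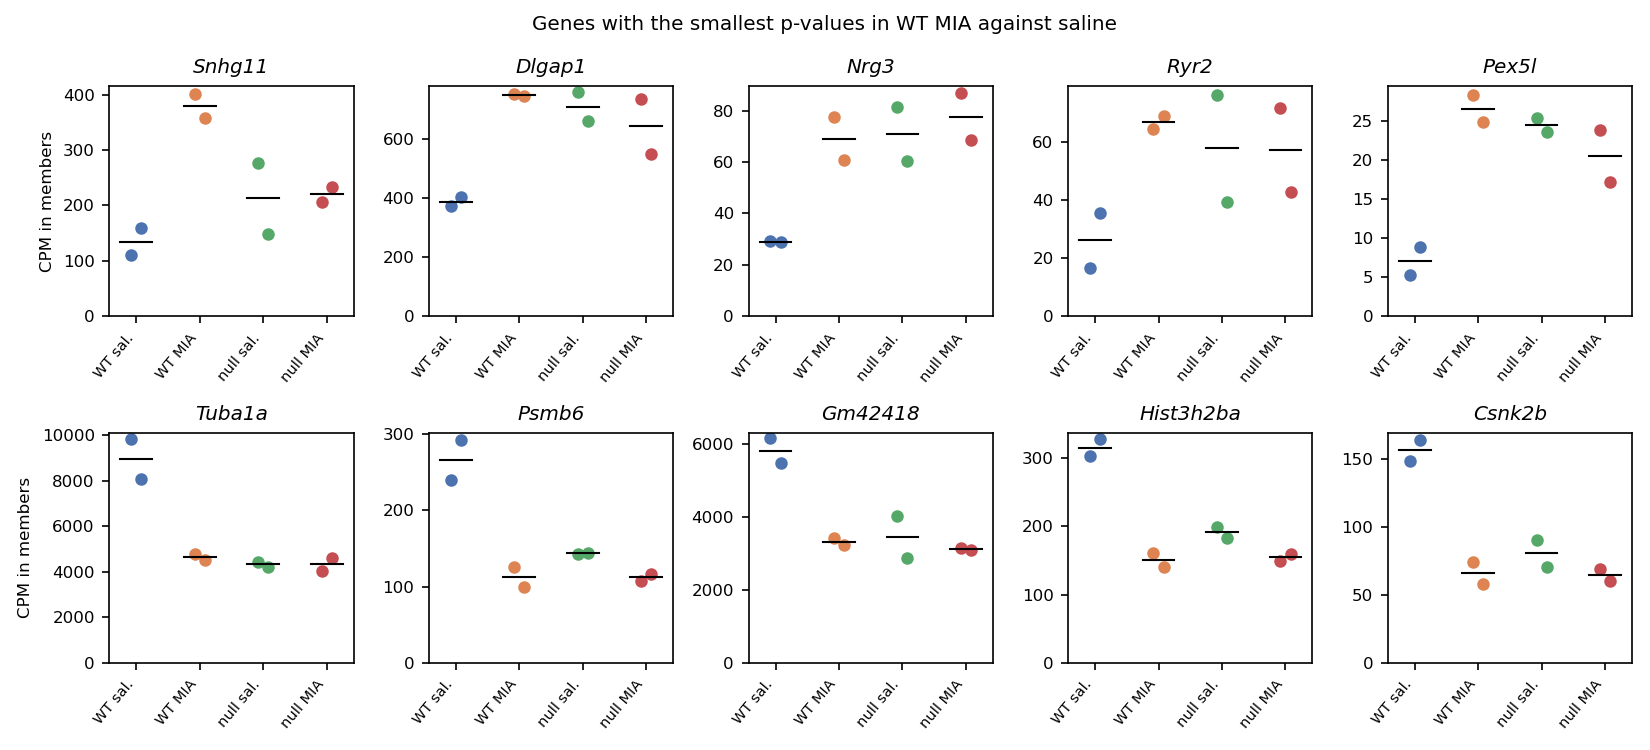
The 5 genes higher and the 5 lower with the smallest p-values in WT MIA against saline, as CPM over the members (1 point per library, bar for the group mean, linear axes from 0). In the 10 panels both WT saline libraries lie apart from both WT MIA libraries, which follows from choosing genes by these p-values. None of these genes passed edgeR's test without the block. In every panel but that of Snhg11 the WT saline libraries lie apart from all 6 other libraries, those of Csf1r-null saline included, and for Tuba1a above them. The same WT saline values entered the choice of genes.

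Other nuclei of the same WT libraries moved in the same direction for the genes that were lower. Tuba1a differed by -0.65 on the log2(CPM + 1) scale in all other nuclei, Psmb6 by -0.66, Gm42418 by -0.72 and Csnk2b by -0.77, and the difference between members and others was not called for any of them. Of the higher genes, Dlgap1 differed by 0.56, Nrg3 by 0.46, Ryr2 by 0.16 and Pex5l by 0.0069 in the others, and their excess in members was not called either. Snhg11 differed by 0.43 in the others, and its excess in members of 1.15 ± 0.22 passed edgeR's test (adjusted p = 0.00019), but not without WT saline 1 (0.65, adjusted p = 1) nor without the library labelled WT MIA 2 (0.73, adjusted p = 0.687).

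In the test of members against all others, 21 of 14116 genes outside the rule were called (0.149%), 18 in favour of the members (0.128%) and 3 against (0.0213%), while DESeq2 called none (181 had an unadjusted p under 0.05). Without WT saline 1 there were 2 calls, both against the members, and without WT saline 2 there were 60, 42 in their favour and 18 against. For Dlx6os1 the response of members exceeded that of others by 3.36 ± 0.20 on the log2 scale. Its level in members was 886 and 654 CPM in WT saline and 738 and 819 in WT MIA. In the other nuclei, pan-GABAergic genes outside the rule summed to 865 and 273 CPM in WT saline and 315 and 305 in WT MIA. The other nuclei of WT saline 1 included its 354 striatal-like ones. When others were limited to nuclei with no UMI of the 5 GABAergic genes, 9 genes were called, 6 in favour of the members. Opcml, an adhesion protein (-1.28 ± 0.25), and Gadd45g, a stress response gene (-1.98 ± 0.49), were lower in the response of members than of others.

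In Csf1r-null embryos MIA gave no call by edgeR with or without the block (0.0%; 172 genes had an unadjusted p under 0.05 without it). Snhg11 stood at 277 and 149 CPM after saline and at 206 and 234 after MIA, and Tuba1a at 4441 and 4209 against 4025 and 4623, so that both overlapped. For Snhg11 the overlap rests on the library labelled Csf1r-null saline 2 (149), which goes against its label. Maml3 (1.20 ± 0.28), Mrps22 (1.12), Pias1 (1.00), Nudt19 (-2.05), Cdh10 (-2.004) and Mpnd (-0.90) had the smallest p-values. The proteasome list had a median of -0.17, ribosomal proteins one of -0.11 and oxidative phosphorylation one of -0.06.

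The difference between the genotypes in their response was not called for any gene without the block (0.0%; 364 had an unadjusted p under 0.05). With the block 8 genes passed (0.0972%), 5 with the higher (0.0608%) and 3 with the lower (0.0365%) response in Csf1r-null embryos. Of these Tuba1a (0.98), Tubb2b (1.04), Tubb3 (1.04) and Dynlrb1 (1.39), a dynein light chain, had the higher and Snhg11 (-1.53), Dlgap1 (-1.07) and Phykpl (-1.59) the lower response, and the eighth was Dqx1. Without WT saline 1 only Dqx1 passed, leaving out any other library gave 1 to 62 calls (2 without the library labelled WT MIA 2), and 3 remained without both libraries that contradict their labels.

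The comparison of genotypes after saline shares its WT saline libraries with the WT comparison above. No gene passed without the block (0.0%; 715 had an unadjusted p under 0.05), with Tuba1a nearest (-1.05 ± 0.16, edgeR adjusted p = 0.0726). DESeq2 called 12 of the 1848 genes to which it gave an adjusted p (0.649%), 2 higher (0.108%) and 10 lower (0.541%) in Csf1r-null saline. With the block 146 passed edgeR's test (1.77%), 32 higher (0.389%) and 114 lower (1.39%), and this count fell to 2 without WT saline 1, 15 without Csf1r-null saline 1, 43 without the library labelled Csf1r-null saline 2 and 28 without both libraries that contradict their labels. Tshz3, a transcription factor (1.31), and Pcdh10, a protocadherin (1.32), were higher with the block, and the ubiquitin gene Ubb (-0.92) and Cnpy2 (-1.24) lower. Oxidative phosphorylation genes had a median of -0.58 with 12 of 73 lower, and proteasome genes -0.51 with 5 of 31 lower. Npy, at 504 and 424 CPM in WT saline and 228 and 183 in Csf1r-null saline, was lower with the block, the only one of 19 MGE genes.

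After MIA the genotypes differed in no gene without the block (0.0%; 155 had an unadjusted p under 0.05) and in 1 with it (0.0122%), Gm10076, which was higher in Csf1r-null embryos (2.42) and was not called without WT saline 1 or the library labelled WT MIA 2. Ociad2 (1.31), Opcml (0.96), Adipor2 (1.03), Jrkl (-1.41), Top2a (-1.85), the topoisomerase of dividing cells, and Zbtb4 (-1.63) had the smallest p-values without it. Averaged over genotypes, MIA gave 0 calls without (0.0%; 433 had an unadjusted p under 0.05) and 23 with the block (0.279%), 2 higher (0.0243%) and 21 lower (0.255%). The higher ones were Snhg11 (0.75) and Hes1 (2.55), a Notch target, and Psmb6 (-0.81), Vapa (-0.72) and Hist3h2ba (-0.71) were among the lower, while leaving out single libraries gave 0 calls (WT saline 1) to 109 calls (Csf1r-null MIA 2). Maml3, at 39.3 to 63.9 CPM in the 4 saline and 71.7 to 94.2 in the 4 MIA libraries, did not overlap between treatments (0.73) but did not pass (edgeR adjusted p = 0.0878 with the block).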

How the data were processed

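Single-nucleus RNA-seq libraries (10x Genomics 3' chemistry) were made by the authors from E15.5 cortex. The deposited matrices hold UMI counts per gene and barcode, not normalized, which the authors obtained with Cell Ranger on build mm10. The file headers give version 3.1.0 for replicate 1, whose matrices list all barcodes, and 6.0.1 for replicate 2, and the submitters' processing notes give 3.1.0. Microglia samples of the series were not used here. The 30406 genes shared by both versions were kept. Nuclei passed 500 UMIs and 200 genes, were gated by the rule given above, and were summed per library, since nuclei are not replicates.

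Sums were tested with edgeR 4.0.16 (TMM, filterByExpr, glmQLFit and glmQLFTest, R 4.3.3) in 1 model of 4 group means, with the library as a block where 2 classes of nuclei were compared, and Benjamini-Hochberg adjustment over all genes tested. The threshold was 0.05. Shares were compared by exact permutation within genotype or treatment, except the share with Sst, a gene of the rule, which is given without its planned test. The dam could not enter any of these tests, because the labels do not name it. CPM were computed as counts scaled to the same total of UMIs for the class in each library. DESeq2 1.42.0, RLE factors, no filter, doublet removal, stricter gates, omission of libraries and a replicate block were alternatives. The tests were checked on simulated data. Deviations from group means correlated between same-numbered libraries of all 6 pairs of groups (0.303 to 0.361). The numbers coincide with the Cell Ranger version, so the correlation cannot tell a pairing of libraries from a difference between versions. The biological coefficient of variation was 18.5%.

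The members and lists were chosen with earlier results of these data known. Named genes were the 5 higher and 5 lower with the smallest p in WT MIA, 3 and 3 in other group comparisons and in members against others, the 10 and 10 with the largest differences at a mean of at least 20 CPM over the members in comparisons of classes, the 4 most abundant genes of each list and list members called. AY036118, Gm10076, Phykpl, Tubb3 and the other tubulins were named after their values were seen, as were genes high in members against other nuclei. Some genes that the rule names are not reported here. Sequences came from RefSeq (GRCm38.p6), where both searched genes matched.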

Additional observations from a re-analysis of the deposited data

Results flagged for a closer look

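With the replicate number as a block, 8 genes passed edgeR's test of a difference between the genotypes in their MIA response, given here as the Csf1r-null response minus the WT response on the log2 scale. They were Dqx1 (10.66), Snhg11 (-1.53), Tuba1a (0.98), Tubb2b (1.04), Dlgap1 (-1.07), Tubb3 (1.04), Phykpl (-1.59) and Dynlrb1 (1.39). Dqx1 had 0 CPM in WT saline 1 and 99.8 in WT saline 2, and 37.4 in Csf1r-null MIA 1 against 2.86 in Csf1r-null MIA 2, so that its value came from single libraries.

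Among the genes with the smallest p-values in the group comparisons and Erbb4, another 9 moved in opposite directions in the genotypes within each replicate number but did not pass the test of the difference (edgeR adjusted p 0.267 to 0.751 with the block). These were Pex5l (-2.22), Mrps22 (1.27), Frrs1l (-1.54), Pcdh10 (-0.98), Cnpy2 (0.95), Ociad2 (0.83), Jrkl (-0.92), Zbtb4 (-2.36) and Erbb4 (-0.34). All but Erbb4 were chosen by small p-values in comparisons of these same libraries, a choice that can by itself favour such a pattern. The share of all genes with this pattern is not given here, so the 9 are a description only. Each group held 2 libraries, too few for a search for libraries that stand apart within a group.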

How the results depend on the processing

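The block on the replicate number was the choice that changed most. It gave 181 genes for WT MIA (22 higher, 159 lower) and 146 for Csf1r-null against WT after saline (32 and 114). MIA averaged over genotypes gave 23 (2 and 21), the genotype difference 8 (5 and 3) and Csf1r-null against WT after MIA 1. Each of these rose from 0 without the block, and Csf1r-null MIA stayed at 0. With the block, chosen after seeing the data, leaving out each library in turn gave, in the order Csf1r-null MIA 1 and 2, Csf1r-null saline 1 and 2, WT MIA 1 and 2, WT saline 1 and 2, 312, 268, 173, 186, 154, 11, 1 and 133 calls for WT MIA, 236, 215, 15, 43, 203, 167, 2 and 153 for Csf1r-null against WT after saline, 2, 109, 7, 9, 58, 3, 0 and 32 for the average, 62, 2, 1, 7, 15, 2, 1 and 17 for the genotype difference, 2, 1, 1, 1, 2, 0, 0 and 1 for Csf1r-null against WT after MIA, and 3, 1, 0, 0, 1, 0, 0 and 0 for Csf1r-null MIA. Omitting both libraries that contradict their labels gave 8, 28, 2, 3, 1 and 0. Without the block, leaving out each library gave 0 to 1 calls for WT MIA, Csf1r-null against WT after saline and the genotype difference, 0 for the other 3 group comparisons, 146 to 223 for MGE-type against CGE-type, 148 to 190 for Sst-detected against Sst-free and 2 to 60 for members against other nuclei.

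DESeq2 called 24 genes for WT MIA, 12 for Csf1r-null against WT after saline, 99 for Sst-detected against Sst-free and 0 for members against others. Without the low-count filter the counts were 31 for WT MIA, 33 for Csf1r-null against WT after saline, 10 for the average, 2 for the genotype difference, 1 each for Csf1r-null MIA and for Csf1r-null against WT after MIA, 267 (128 higher, 139 lower) for Sst-detected against Sst-free, and 389 (281 higher, 108 lower) for MGE-type against CGE-type. After doublet removal, at an MGE sum of at least 3, with at least 1000 UMIs or without members carrying projection neuron UMIs, 1 gene passed in Csf1r-null against WT after saline. With other nuclei free of GABAergic UMIs, an alternative chosen after seeing the data, 9 genes were called against 21. Dqx1 reversed without WT saline replicate 2 (range -6.64 to 6.11).

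Differences in shares, leaving out each library in turn, were -1.33 to 0.35 percentage points for MIA against saline, -2.05 to -0.37 for Csf1r-null against WT, 0.98 to 8.49 for members among interneurons and -1.58 to 7.90 for Sst, and the first reversed to 0.29 without both libraries that contradict their labels. Of all alternatives to comparisons, 173 kept the count or side of the threshold, 68 gave calls where the unblocked test gave none, 7 moved a count by over 1.5 times and 3 reversed a difference in shares. Of values of single genes 1461 kept their side, 208 became stronger and 17 weaker. List medians in WT MIA moved by more than the spread between replicates in 62 cases and by less in 484, the median lying at -0.76 to -0.43 for the proteasome list, -0.81 to -0.44 for oxidative phosphorylation, -0.60 to -0.21 for ribosomal proteins and 0.066 to 0.47 for MGE genes. Medians of the CGE, pan-GABAergic, GABA-A receptor, interferon response, ER stress, mitochondrial, S phase, projection neuron, apical progenitor, striatal, Cajal-Retzius and MGE progenitor lists took both signs. The causes were not tested. With 2 libraries a group and 8 to 96 CGE-type nuclei a library, small differences could not be resolved at this depth.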

Other observations

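Markers of microglia, of endothelial and mural cells and of oligodendrocyte precursors were near 0 in the members, at 0 to 11.1, 8.87 to 33.1 and 0 to 11.5 CPM summed. Those of apical progenitors summed to 566 to 901 CPM (1075 to 2033 in other nuclei), striatal and other ventral ones to 324 to 521 (2007 to 4193) and Cajal-Retzius ones to 111 to 203 (33.6 to 57.1). No gene of the microglial, endothelial and mural or oligodendrocyte precursor lists passed the filter on low counts, and Olig2, Sox10 and Cspg4 had no UMI in any member. Pdgfra and Olig1 had 8.38 and 3.14 CPM in WT saline 1 and 0 in the other 7 libraries. Mki67, a gene of dividing cells, stood at 2.62 to 33.5 CPM and was not called in WT MIA. Mitochondrial transcripts, of which 6 were tested, had a median of 0.16 in WT MIA and no call.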
